A study of Mus musculus with 6 samples.

Results

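TRIM genes encode the tripartite motif proteins, which carry a RING domain, B-boxes and a coiled coil, and of which many are E3 ubiquitin ligases. They were taken as the protein-coding genes whose symbol is Trim followed by a digit, which gave 64 genes of the 17451 protein-coding genes in the count table. Of these, 10 lie next to each other on chromosome 7 (GRCm38, chr7:104218793-104507849) and are called the block here, whether neighbouring TRIM genes may be at most 100, 250 or 500 kb apart, and 54 lie elsewhere, 6 of them on other parts of chromosome 7. The RNA-seq libraries were made from primary Sertoli cells, the somatic support cells of the seminiferous tubule, of 20-day-old C57BL/6 mice. There were 3 Pa1F/F libraries, whose floxed Pa1 alleles are intact and which served as control, and 3 Amh-pa1-/- libraries, in which a Cre driven by the Amh promoter had deleted Pa1 in Sertoli cells. Pa1 encodes a subunit of histone methyltransferase complexes, and its own reads were not analysed here. The cells of both genotypes were untreated, kept in culture and washed to remove germ cells. The study's methods speak of biological replicates, but nothing in the labels says that the 3 libraries of a genotype came from separate animals or cultures, so the p-values measure the spread between these libraries, which may be technical.

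The block holds relatives of Trim5, a gene family that has been duplicated often in mammals and whose products are known for restricting retroviruses and other viruses. Many TRIM genes are induced by interferon, and several TRIM proteins attach ubiquitin to the sensors and adaptors that detect viral RNA and DNA. Sertoli cells themselves carry such sensors, and innate defence in the testis is known to run partly through them.

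Total counts ran from 13203757 to 16231443 per library. Pa1F/F replicates 1 and 3 differed by 3.59% beyond sampling noise (coefficient of variation over genes), as did Amh-pa1-/- replicates 1 and 2 by 2.41%, while every other pair within a genotype differed by 18.4% to 22.2%. Each genotype therefore had a close pair and one library apart, Pa1F/F replicate 2 and Amh-pa1-/- replicate 3. Several results that rest on them are given with and without the library. Without Pa1F/F replicate 2 the controls left are the close pair, as are the knockout libraries left without Amh-pa1-/- replicate 3. The SEs and adjusted p of those fits therefore rest on a spread within that genotype that may be technical. In the comparison of the genotypes, a gene was called when the adjusted p of edgeR's quasi-likelihood test (Benjamini-Hochberg over 14919 tested genes) was below 0.05 and the log2 fold change of Amh-pa1-/- over Pa1F/F was at least 1 in size.

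The upstream sequences of the Trim5 and Trim12 genes and of 2 Trim30 genes are shown first. These related genes have similar upstream sequences but differed in their counts. Each line gives the 250 bases before the RefSeq start site, read 5′ to 3′ on the strand of the gene (GRCm38.p6), with matches to the core of the interferon-stimulated response element, GAAANNGAA on either strand, in capitals.
Trim12a (minus strand, chr7:104315496-104315745): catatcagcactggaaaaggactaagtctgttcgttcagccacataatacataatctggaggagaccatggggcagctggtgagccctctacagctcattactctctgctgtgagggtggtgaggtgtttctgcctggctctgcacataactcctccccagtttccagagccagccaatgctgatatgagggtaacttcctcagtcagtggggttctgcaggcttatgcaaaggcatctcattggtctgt
Trim5 (minus strand, chr7:104288107-104288356): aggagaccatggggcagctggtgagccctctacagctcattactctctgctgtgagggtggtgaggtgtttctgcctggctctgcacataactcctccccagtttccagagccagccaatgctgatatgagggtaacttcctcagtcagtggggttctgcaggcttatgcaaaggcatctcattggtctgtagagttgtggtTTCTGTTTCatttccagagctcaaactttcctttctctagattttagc
Trim12c (minus strand, chr7:104353350-104353599): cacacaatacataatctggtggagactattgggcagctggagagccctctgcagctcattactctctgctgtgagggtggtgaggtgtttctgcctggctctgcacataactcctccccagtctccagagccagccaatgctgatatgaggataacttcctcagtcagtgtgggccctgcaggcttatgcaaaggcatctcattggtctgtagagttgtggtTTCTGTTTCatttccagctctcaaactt
Trim30d (minus strand, chr7:104507850-104508099): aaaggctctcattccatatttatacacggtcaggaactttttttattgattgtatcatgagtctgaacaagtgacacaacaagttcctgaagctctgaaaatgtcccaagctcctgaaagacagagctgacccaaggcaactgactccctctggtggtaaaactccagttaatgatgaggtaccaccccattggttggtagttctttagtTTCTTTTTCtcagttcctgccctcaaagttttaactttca
Trim30a (minus strand, second of its RefSeq starts, chr7:104465194-104465443): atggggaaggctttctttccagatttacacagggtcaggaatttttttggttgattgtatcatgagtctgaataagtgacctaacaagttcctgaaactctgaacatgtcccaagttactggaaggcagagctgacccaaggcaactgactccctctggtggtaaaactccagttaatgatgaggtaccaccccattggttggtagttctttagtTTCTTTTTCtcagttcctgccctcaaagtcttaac

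The Trim12a and Trim5 windows shared an unbroken run of 191 bases, and each shared a run of 71 bases with Trim12c. The Trim30d window shared 118 bases in a row with the printed window of Trim30a, and 31 with that of the other RefSeq start of Trim30a. RefSeq promoter windows of 300 bases (250 before and 50 after the start) were found for 49 of the 64 TRIM genes, all 10 block genes among them. The element core lay in the window of 7 of the 10 block genes, of 5 of 39 other TRIM genes and of 9.76% of 27025 genes in all. The 7 were Trim34a, Trim5, Trim12a, Trim34b, Trim12c, Trim30a and Trim30d, and in Trim12a and Trim34a the match lay 11 bases after the start, outside the printed stretch. The printed matches of Trim5 and Trim12c had the same letters, as had those of Trim30d and Trim30a. They lay in similar sequence, so the 7 genes are not independent cases. The windows of Trim6, Trim30b and Trim30c held no match. The AP-1 letters TGANTCA lay in 3 of the 10 block genes (Trim34b, Trim30a and Trim30d), in 6 of 39 other TRIM genes and in 8.97% of all genes. These matches are letters in a window and no measure of binding.

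Of the 10 block genes, 9 had enough counts to be tested, and 6 were called lower in Amh-pa1-/- cells. None was called higher, and 3 were not called. Over all tested genes, 6.56% were called lower and 5.44% higher. The median log2 fold change of the 9 block genes was -3.28, against 0.00 over all tested genes, and was -1.30 without Pa1F/F replicate 2, when the count called lower was again 6. A gene that is high in a single genotype passes the filter on low counts through that genotype, which bears on the low genes named below. Values are normalized counts, that is counts scaled to a common library size, and the libraries of a genotype are given in the order of their replicate numbers. For single genes an exact permutation test of 3 libraries against 3 cannot give a p below 0.1.

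Trim12a (ENSMUSG00000066258, chr7:104299894-104315466, minus strand), a mouse relative of the retroviral restriction factor TRIM5, had 493, 701 and 504 normalized counts in Pa1F/F cells against 0, 1.13 and 0 in Amh-pa1-/- cells. Every control library was far above every knockout library, and a single read stood in the knockout libraries together against 1749 in the control libraries. The ratio of control over knockout was 1647, with an exact 95% interval of 295 to 65085 that covers counting error only. Its adjusted p in edgeR's test was 5.2e-05. Trim5 itself (ENSMUSG00000060441, chr7:104263386-104288094, minus strand) had 79.7, 102 and 64.0 in Pa1F/F and 2.93, 0 and 3.01 in Amh-pa1-/- cells. The groups did not overlap, and 254 control reads stood against 6 knockout reads, a ratio of 39.9 with an interval of 18.1 to 110 (edgeR adjusted p = 7.1e-04).

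Trim30d (ENSMUSG00000057596, chr7:104470014-104507849, minus strand), an interferon-induced gene whose product restricts tick-borne flaviviruses, had 124, 1456 and 165 normalized counts in Pa1F/F cells. No read was assigned to it in any Amh-pa1-/- library. It overlaps the pseudogene Gm16464 on the same strand over 1095 bases, which had 7, 44 and 8 reads in Pa1F/F and 4, 2 and 3 in Amh-pa1-/- libraries. Pa1F/F replicate 2 was 10.1 times the mean of replicates 1 and 3, so the spread within the control group was wide. Against a floor of 3 counts in each library, Trim30d was at least 187-fold lower in Amh-pa1-/- cells (edgeR adjusted p = 0.023), and at least 46.5-fold lower without Pa1F/F replicate 2. The call was lost with the close pairs summed (0.0762) and with limma-voom (0.0961). The fitted log2 fold changes of Trim30d and Trim12a depend on the prior count and are no bound. The median of the block, -3.28, is the value of Trim30a and is the same with Trim30d at its bound.

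Trim30b (ENSMUSG00000052749, chr7:104355382-104369884, minus strand), a weakly expressed relative, had 24.5, 20.3 and 17.8 in Pa1F/F cells against 0.98, 1.13 and 0 in Amh-pa1-/- cells. The 3 control libraries lay close together, with replicate 2 at 0.96 times the mean of the others, and all lay above the knockout libraries. With 65 control reads and 2 knockout reads the ratio was 30.6 (interval 8.14 to 258, edgeR adjusted p = 0.0012). Trim30c, between Trim30b and Trim30a, was not tested. It had 3 reads in Pa1F/F replicate 2 and none in the other libraries.

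Trim30a (ENSMUSG00000030921, chr7:104409025-104465193, minus strand), which is known to dampen Toll-like receptor signalling to NF-kB, was lower but not lost. Its values were 213, 2296 and 217 in Pa1F/F and 88.8, 78.9 and 113 in Amh-pa1-/- cells. The highest knockout library lay below the lowest control library, and Pa1F/F replicate 2 stood 10.7 times above the other control libraries. The log2 fold change was -3.28 ± 1.01 (SE, adjusted p = 0.044) with all libraries and -1.20 ± 0.18 (adjusted p = 0.0069) without Pa1F/F replicate 2. The call was lost when any one Amh-pa1-/- library was left out (adjusted p = 0.0595 to 0.122), with the close pairs summed (0.120) and with limma-voom (0.221).

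Trim34a (ENSMUSG00000056144, chr7:104244457-104262234, plus strand), an interferon-induced gene, had 131, 492 and 146 in Pa1F/F and 46.9, 55.2 and 66.1 in Amh-pa1-/- cells. Again the groups did not overlap and Pa1F/F replicate 2 was the highest, at 3.55 times the mean of the other control libraries. The log2 fold change was -2.19 ± 0.55 (adjusted p = 0.022), and -1.30 ± 0.20 (adjusted p = 0.0071) without that library. The call was lost without Amh-pa1-/- replicate 1 (adjusted p = 0.075) or replicate 2 (adjusted p = 0.0683), with the close pairs summed (0.0914) and with limma-voom (0.0692). Trim6 (ENSMUSG00000072244, chr7:104218793-104235152, plus strand), whose product builds free ubiquitin chains in antiviral signalling, had 251, 335 and 249 against 150, 181 and 140. It passed the adjusted p (0.0093) with a log2 fold change of -0.82 ± 0.16 but not the fold threshold, and missed the adjusted p with the close pairs summed (0.065).

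Trim12c and Trim34b stood apart from their relatives Trim12a, Trim5 and Trim34a. Trim12c (ENSMUSG00000057143, chr7:104338754-104353362, minus strand), a close relative of Trim12a and Trim5, had 437, 766 and 463 in Pa1F/F and 520, 597 and 572 in Amh-pa1-/- cells. The knockout values lay inside the range of the control values, with a log2 fold change of 0.02 ± 0.22 (adjusted p = 0.95). Without Pa1F/F replicate 2 its log2 fold change was 0.32 ± 0.09 (adjusted p = 0.047). Trim34b (ENSMUSG00000090215, chr7:104329471-104336909, plus strand), the near-copy of Trim34a, had 34.4, 112 and 36.7 in Pa1F/F and 57.6, 59.7 and 84.2 in Amh-pa1-/- cells. Its log2 fold change was 0.14 ± 0.48 (adjusted p = 0.85), and 0.92 ± 0.26 (adjusted p = 0.046) without Pa1F/F replicate 2. Both changes were small with all libraries, and their sign turned without Pa1F/F replicate 1 or without replicate 3.

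**Figure D1:**
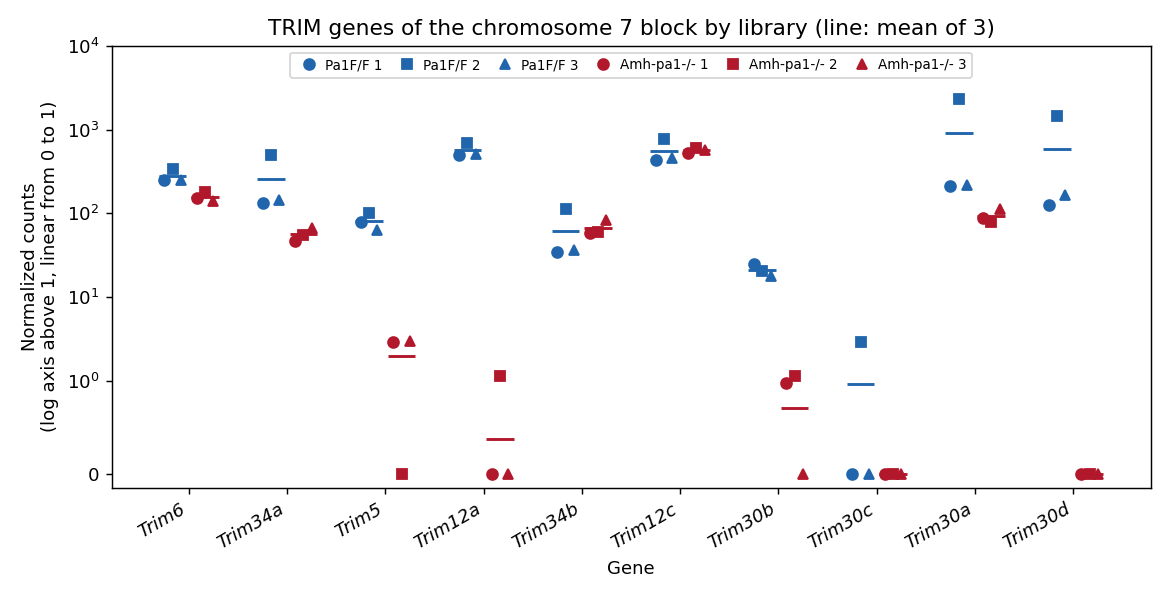
Normalized counts of the 10 block genes (x axis, in chromosome order) in each library, on an axis that is linear from 0 to 1 and logarithmic above. Blue marks are the 3 Pa1F/F libraries, red marks the 3 Amh-pa1-/- libraries, and lines the means of 3. Trim12a and Trim30d stand at 0 or 1.13 in every knockout library, while the Trim12c values of the genotypes overlap.

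The make-up of the block differed with its total. The 10 genes together gave 1788, 6282 and 1862 normalized counts in Pa1F/F cells against 868, 975 and 979 in Amh-pa1-/- cells, a ratio of 3.52 that was 1.94 without Pa1F/F replicate 2. Trim12c gave 24.4%, 12.2% and 24.8% of the block's counts in Pa1F/F libraries and 60.0%, 61.3% and 58.4% in Amh-pa1-/- libraries. Trim12a gave 27.6%, 11.2% and 27.1% in Pa1F/F libraries. In Pa1F/F replicate 2 the largest shares were those of Trim30a, with 36.5%, and Trim30d, with 23.2%. These shares sum to a whole, so the rise in the share of Trim12c goes with the fall of the others at a similar number of Trim12c counts.

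**Figure D2:**
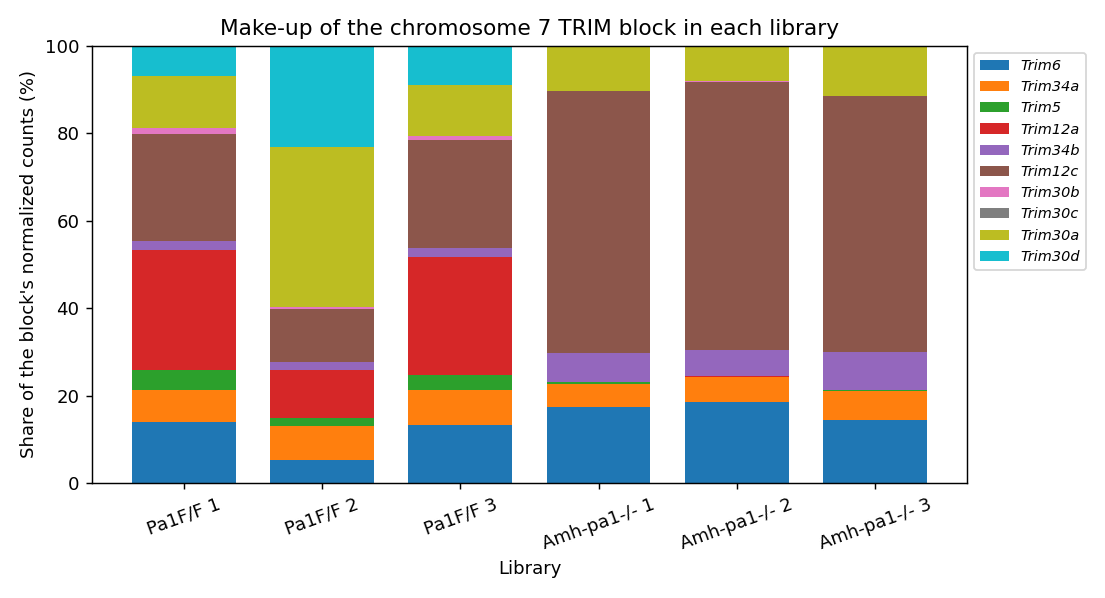
Share of each block gene in the summed normalized counts of the block (y axis, percent), by library (x axis). The Trim12c share is 58.4% to 61.3% in the 3 Amh-pa1-/- libraries, where Trim12a and Trim30d have almost no share, and 12.2% to 24.8% in the 3 Pa1F/F libraries.

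Called and uncalled genes alternated along the block. In chromosome order, Trim6 was not called, Trim34a, Trim5 and Trim12a were lower, Trim34b and Trim12c were not called, Trim30b was lower, Trim30c was untested, and Trim30a and Trim30d were lower. Within the block and 1 Mb on either side, 6 genes outside the TRIM family were tested, of which 1 was called lower and 2 higher, beside 6.56% and 5.44% of all tested genes. The one called lower was Gm15133, which lies inside the block on the opposite strand to Trim12a and overlaps its 5′ end by 448 bases. It had 27.2, 34.8 and 23.1 normalized counts in Pa1F/F cells against 0 in every Amh-pa1-/- library. Since the library kit marks no strand as far as it is named, the reads of this overlap cannot be assigned to either gene alone. Beyond the block, Gm5900 (18.1, 24.2 and 16.8 against 82.0, 78.9 and 84.2) and Cavin3, which encodes a caveola protein (291, 193 and 287 against 742, 773 and 729), were called higher.

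**Figure D3:**
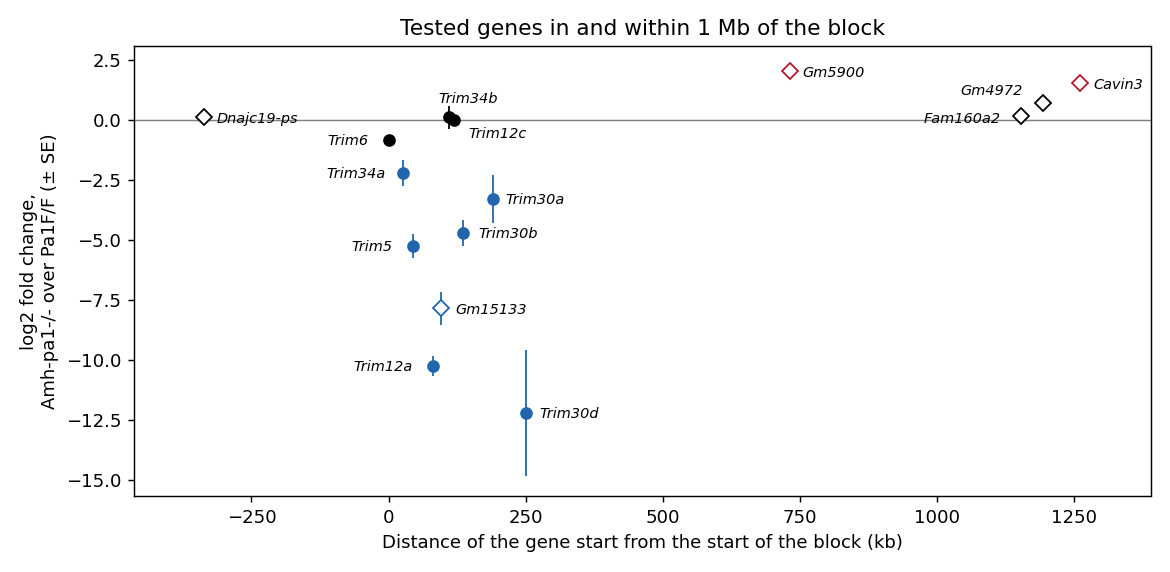
log2 fold change of Amh-pa1-/- over Pa1F/F with its SE (y axis) against the distance of each tested gene's start from the start of the block in kb (x axis). Circles are TRIM genes and diamonds other genes, blue called lower, red called higher and black not called. Trim12c and Trim34b lie at 0.02 and 0.14 between Trim12a at -10.24 and Trim30b at -4.70.

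Near-identical copies can share reads, and the counting of reads that fit several genes was not tested. Of all 50-base stretches in their GENCODE M39 transcripts, Trim34b shared 49.1% with other genes, Trim34a 40.6%, Trim5 38.5%, Trim12c 33.1% and Trim30a 18.0%. For Trim34a the sharing gene was Trim34b. Trim12a shared 7.15%, Trim30d 8.10% and Trim30b 1.39%, and Trim6 none. Levels of Trim5, Trim12c, Trim34a, Trim34b and, to a lesser degree, Trim30a are therefore uncertain as levels of single genes, while the transcripts of Trim12a, Trim30d and Trim30b consist mostly of stretches found in no other gene. The counts were made on the reference genome of the C57BL/6J strain, and a count of 0 says that no read was assigned to the gene as it stands in that reference. Whether the DNA of the block was alike in the mice of both genotypes was not tested, and a difference there would change what the 0 or near-0 counts of Trim12a, Trim30d, Trim5 and Trim30b mean.

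Of the 54 TRIM genes outside the block, 34 were tested, of which 4 were called lower and 1 higher. As a share of the tested, 11.8% were called lower and 2.94% higher, beside 6.56% and 5.44% over all tested genes. By the adjusted p alone 14 of 34 passed, 9 lower and 5 higher, which is 41.2% beside 35.3% of all tested genes, and the genotypes did not overlap in 15 of 34, or 44.1%, beside 52.4%. Their median log2 fold change was -0.14. Without Pa1F/F replicate 2, 2 of 33 tested were called lower and 1 higher, beside 5.84% and 5.29% of all tested genes. Their median log2 fold change was then -0.05.

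Trim62, a RING ligase known as a regulator of epithelial polarity, had 892, 862 and 843 normalized counts in Pa1F/F and 350, 312 and 399 in Amh-pa1-/- cells. Its groups were far apart relative to their spread, with a log2 fold change of -1.29 ± 0.10 (adjusted p = 3.1e-04). Trim16, a member without a RING domain that takes part in clearing damaged lysosomes, went the other way, with 217, 135 and 207 against 724, 713 and 488. Its log2 fold change was 1.79 ± 0.23 (adjusted p = 0.0018), although it overlaps Fbxw10, so that some reads may belong to either gene. Neither call was lost with another normalization, filter or tool, with a library left out or with the close pairs summed. In edgeR's glmTreat, which asks for a change beyond the fold threshold itself, no TRIM gene outside the block passed lower, so the call of Trim62 was lost, and 1 passed higher.

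The other 3 called genes rested on fewer reads or on Pa1F/F replicate 2. Trim14, an adaptor of antiviral signalling without a RING domain, had 40.8, 161 and 35.7 in Pa1F/F and 23.4, 13.5 and 15.03 in Amh-pa1-/- cells, with replicate 2 at 4.20 times the other control libraries. The log2 fold change was -2.18 ± 0.66 (adjusted p = 0.042) and -1.13 (adjusted p = 0.045) without Pa1F/F replicate 2. The call was lost without any one Amh-pa1-/- library (adjusted p = 0.070 to 0.119). Trim14 overlaps Nans on the opposite strand over 9852 bases. Trim25, the ligase that activates the RNA sensor RIG-I, had 1412, 2838 and 1497 against 787, 841 and 1087. Its log2 fold change was -1.08 ± 0.29 (adjusted p = 0.025), and -0.69 without Pa1F/F replicate 2, which is under the fold threshold. The call was lost without Amh-pa1-/- replicate 1 (adjusted p = 0.085) or replicate 2 (adjusted p = 0.083). Trim29, a member without a RING domain, had 9.97, 18.4 and 13.6 against 3.91, 3.38 and 3.01. Its log2 fold change was -1.98 ± 0.40 (adjusted p = 0.0096), and it was not tested without Pa1F/F replicate 2 because too few reads were left. With the close pairs summed, the calls of Trim14, Trim25 and Trim29 were all lost (adjusted p = 0.113, 0.113 and 0.0696), and limma-voom also lost that of Trim14 (0.106).

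**Figure D4:**
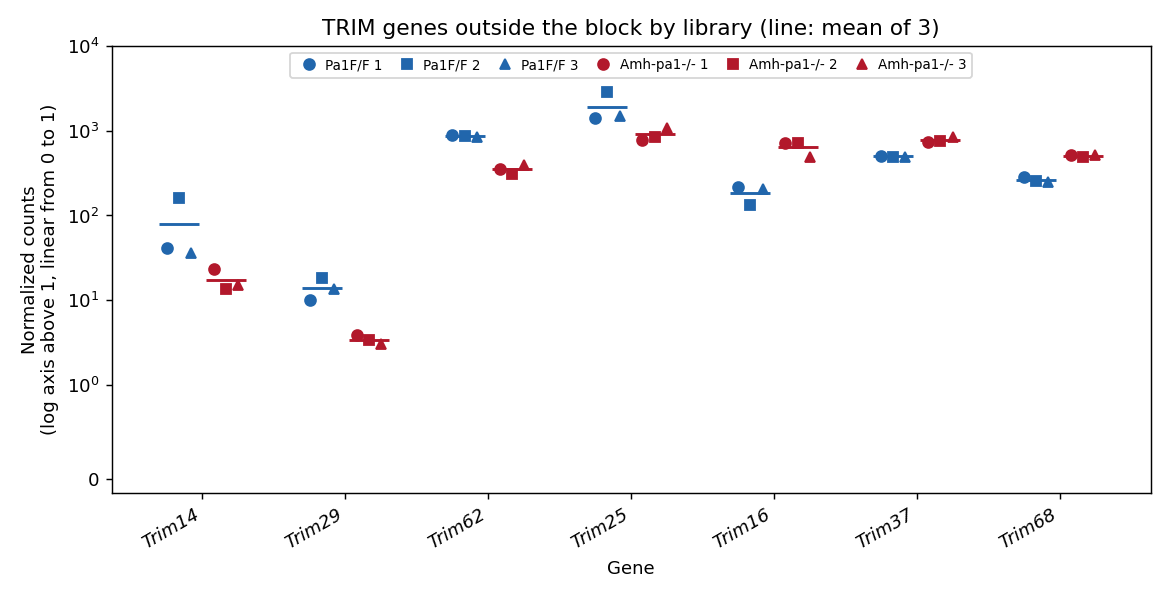
Normalized counts of the 5 called TRIM genes outside the block, and of Trim37 and Trim68 (x axis), in each library, on an axis that is linear from 0 to 1 and logarithmic above. Blue marks are Pa1F/F and red marks Amh-pa1-/- libraries, and lines are means of 3. Trim62 and Trim16 form separate groups of 843 to 892 against 312 to 399 and of 135 to 217 against 488 to 724, while Trim14 and Trim25 are highest in Pa1F/F replicate 2.

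A further 9 genes passed the adjusted p without the fold threshold, of which 2, Trim68 and Trim37, also passed with the close pairs summed and 7 did not (adjusted p = 0.074 to 0.231). Trim47, Trim59 and Trim2 missed it without any one of 5 libraries, among them Pa1F/F replicate 2 (adjusted p = 0.111, 0.0833 and 0.0538), and Trim24 without any one of 4 of those libraries (adjusted p = 0.0851 to 0.0986). Lower were Trim26 (log2 fold change -0.70), Trim47 (-0.47), Trim33 (-0.42), Trim32 (-0.32) and Trim24 (-0.30). Higher were Trim68 (0.95), Trim37 (0.65), Trim59 (0.33) and Trim2 (0.23). Trim68, which encodes a ligase acting with the androgen receptor, had 284, 253 and 245 in Pa1F/F and 515, 487 and 514 in Amh-pa1-/- cells (adjusted p = 6.1e-04), and it was called without Pa1F/F replicate 1 (log2 fold change 1.02). Trim37, mutated in mulibrey nanism, had 509, 490 and 490 against 733, 747 and 854 (adjusted p = 0.0017).

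By role, the transcription cofactors did not pass the fold threshold. Of the C-VI cofactors (Trim24, Trim28, Trim33 and Trim66) 4 were tested, and 2 passed the adjusted p, both lower (Trim24 and Trim33), beside 35.3% of all tested genes. Trim66 had a log2 fold change of 0.68 that did not pass (adjusted p = 0.18). Its normalized counts were 53.5, 48.4 and 51.4 in Pa1F/F and 62.5, 51.8 and 130 in Amh-pa1-/- cells. The difference lay mostly in Amh-pa1-/- replicate 3. Trim28, the KRAB zinc finger corepressor also known as KAP1, had a log2 fold change of -0.04. Of its 12 listed partners in silencing, 7 passed the adjusted p, 3 lower and 4 higher (58.3% beside 35.3%), and 1 was called lower (8.33% beside 6.56%), Daxx, at -1.30, which was not called without Pa1F/F replicate 2. With the close pairs summed, 0 of the 12 passed, when 8.66% of all tested genes did. Of the NHL-repeat members (Trim2, Trim3, Trim32 and Trim71) 3 were tested and passed the adjusted p 1 in each direction. Of the transmembrane pair Trim13 and Trim59, 1 was higher. Of the microtubule-binding COS-box members only Trim46 was tested, and it did not pass (log2 fold change -0.37). None of the 3 muscle ring finger genes had enough reads. Among 3 TRIM-type genes under other names, Mid1 passed the adjusted p higher (log2 fold change 0.68), which it did not with the close pairs summed (adjusted p = 0.205), and Mid2 and Pml did not pass.

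Of the 11 TRIM genes outside the block that are known to act in antiviral sensing, 10 were tested, 3 passed the adjusted p lower (Trim14, Trim25 and Trim26) and none higher. Of all tested genes 17.1% passed it lower and 18.2% higher. Called lower were 2 of 10, Trim14 and Trim25, beside 6.56% of all tested genes, and with the close pairs summed none of the 10 passed the adjusted p. Trim21, the cytosolic antibody receptor, had 132, 769 and 142 normalized counts in Pa1F/F and 116, 126 and 150 in Amh-pa1-/- cells. Its log2 fold change of -1.41 did not pass (adjusted p = 0.16), and was -0.07 without replicate 2, whose value was 5.61 times that of the other control libraries.

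**Figure D5:**
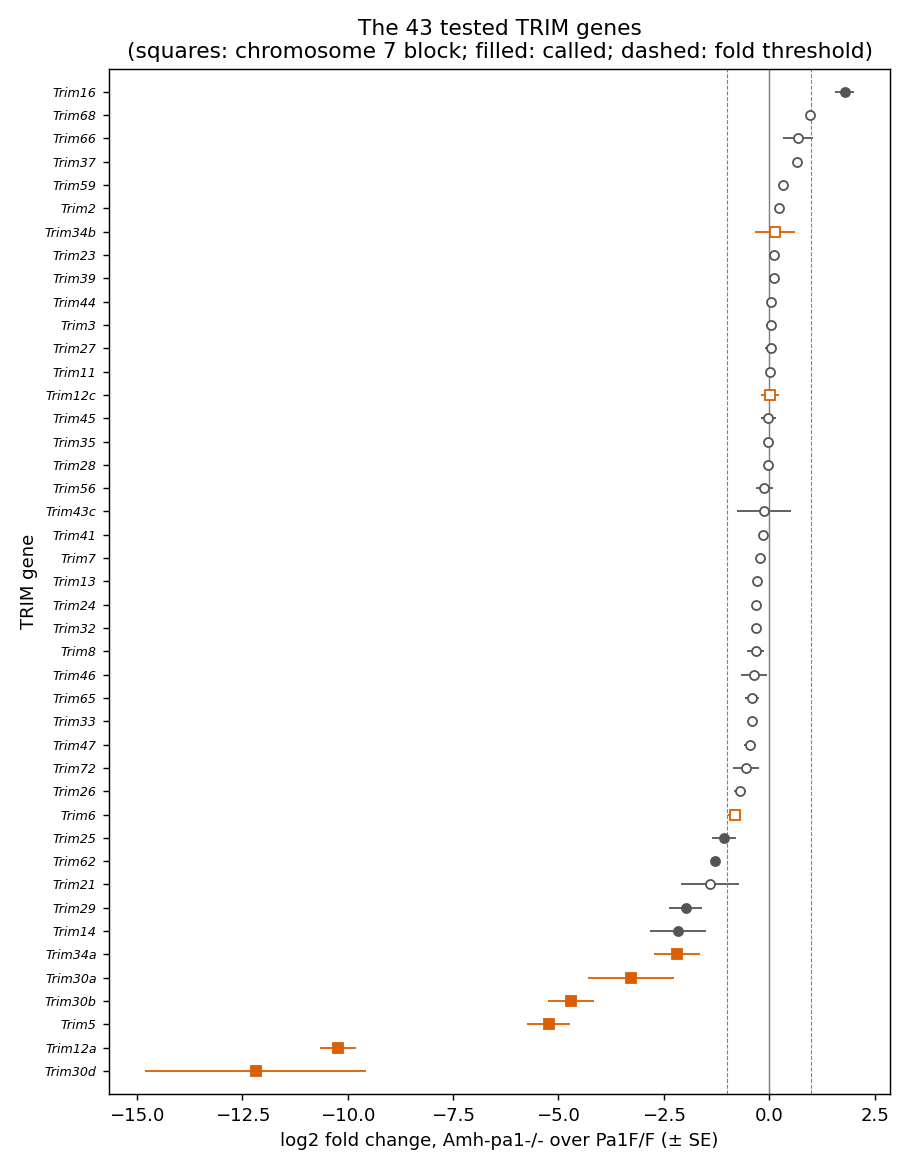
log2 fold change of Amh-pa1-/- over Pa1F/F with its SE (x axis) for the 43 tested TRIM genes (y axis, ordered by fold change). Squares are block genes and circles the others, filled marks are called, and dashed lines mark the fold threshold of 1. The 6 called block genes run from -12.18 to -2.19 and the uncalled block genes from -0.82 to 0.14. The 34 genes outside the block run from -2.18 to 1.79. The value of -12.18, for Trim30d, depends on the prior count.

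By reads per length, the highest TRIM genes outside the block were Trim35, Trim47 and Trim28, with 128, 75.5 and 62.7 CPM per kb of the longest transcript in Pa1F/F cells, where CPM is the count scaled to library size. Trim35 had a log2 fold change of -0.02 (adjusted p = 0.85). Among the block genes the highest mean in Pa1F/F cells was 10.6, for Trim30a, which was 2.52 without Pa1F/F replicate 2, when Trim12c was the highest with 8.09. In Amh-pa1-/- cells the highest was Trim12c with 10.1. Of the 21 untested TRIM genes, the highest count in any library was 15, for Trim50.

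Pa1F/F replicate 2 stood apart in the interferon-linked genes. It was over 1.5 times both other control libraries in 5 of the 9 tested block genes, in 5 of 34 other TRIM genes, and in 19 of 40 listed antiviral sensing and interferon genes (47.5%), against 4.56% of all tested genes. For example, Irf7, the transcription factor of the interferon response, had 124, 2701 and 156 normalized counts in Pa1F/F and 23.4, 14.6 and 113 in Amh-pa1-/- cells, and Isg15 had 77.9, 2403 and 81.8 against 2.93, 10.1 and 138. Neither passed the adjusted p (0.058 and 0.11). Of the 40 genes, Socs1 and Ikbke were called lower and none higher with all libraries, and 5.00% lower is near the 6.56% of all tested genes. Without Pa1F/F replicate 2 none was lower and 4 were higher (Irf1, Tnfaip3, Tlr2 and Irf5), where 5.84% of all tested genes were called lower and 5.29% higher. The log2 fold change of Tlr2 turned with that library, from -1.54 with it to 1.21 without it. Amh-pa1-/- replicate 3 was the highest knockout library in Irf7 and Isg15, and without it 4 of the 40 were called lower (Ikbke, Irf7, Irf9 and Isg15) and none higher, beside 7.92% and 5.6% of all tested genes. With the close pairs summed none of the 40 was called. Trim12a, Trim5 and Trim30b were not among the block genes over that mark. With it left out they were lower by much the same amount, at log2 fold changes of -10.05, -5.05 and -4.72.

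Markers of other cells moved with the genotype as well, beside 6.56% of all tested genes called lower and 5.44% higher. Of 11 tested macrophage markers, 9 were called lower (81.8%), with a median log2 fold change of -2.49, and their summed level, dominated by Mrc1 (log2 fold change 0.17), ran from 1957 to 2123 in Pa1F/F and from 1141 to 1395 in Amh-pa1-/- libraries. None of the defining markers Adgre1, Csf1r and Ptprc was at 0, and Adgre1 fell from 23.6, 61.9 and 14.7 to 2.93, 4.51 and 2.004. Pa1F/F replicate 2 was over 1.5 times both other control libraries in 2 of the 11, and below both by more than that factor in 2. With the close pairs summed 5 of 12 tested macrophage markers were called lower, beside 455 of all 15966 tested genes. Without Amh-pa1-/- replicate 3, 11 of 12 were called lower, where 7.92% of all tested genes were lower and 5.6% higher. All 3 tested Leydig markers were lower, as were 2 of 3 tested germ cell markers (Kit and Ddx4) and 1 of 3 tested endothelial markers (Pecam1), which became 1 of 4, 0 of 4 and 0 of 3 with the close pairs summed. Without Pa1F/F replicate 2, 1 germ cell marker was called lower. With all libraries the summed germ cell levels overlapped, at 59.0 to 88.1 in Pa1F/F and 26.4 to 93.2 in Amh-pa1-/- libraries. Of 4 peritubular myoid markers 1, Acta2, was higher. The summed level of these 4 ran from 3137 to 3997 in Pa1F/F and from 12123 to 17896 in Amh-pa1-/- libraries, mostly Acta2. Their median log2 fold change was 1.23 with all libraries and -1.03 without Amh-pa1-/- replicate 3, when Myh11 and Des were called lower. Of 12 tested Sertoli markers, 1, Inha, was called lower (8.33%). By the adjusted p alone 4 passed lower and none higher, beside 17.1% and 18.2% of all tested genes. Without Amh-pa1-/- replicate 3, 2 were called lower and 1 higher (Inha, Amh and Gata1). Sox9, Wt1 and Gata4 were present in every library. The summed level of the Sertoli list ran from 249269 to 253858 in Pa1F/F and from 151022 to 192513 in Amh-pa1-/- libraries, with Clu, a secreted chaperone, as its largest part. In bulk samples fewer cells of a type and less RNA per cell cannot be told apart, and the part of these cells in the TRIM results was not tested.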

How the data were processed

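The authors extracted total RNA with Trizol, made libraries with the NEBNext Ultra RNA kit, aligned reads to GRCm38 with HISAT2 (2.1.0) and counted reads per gene with HTSeq (0.6.0), on Ensembl 90 gene models. The strand setting is not given in the sources used here. The raw counts the authors deposited for 28262 genes were used. Further deposited columns hold the authors' own fold changes and p-values and were not used.

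Groups came from the sample labels. Counts were tested with edgeR (4.0.16) in R (4.3.3), by the quasi-likelihood test with TMM factors and filterByExpr (minimum count 10, total 15), over 14919 genes. A gene was called at adjusted p below 0.05 and a log2 change of 1 or more in size. The methods of the study name DEGseq. Normalized counts are counts over the effective library size times its mean. Fitted SEs are the log2 fold change over the root of the test statistic. Scripts were tested on simulated data. Alternatives used DESeq2 (1.42.0) and limma (3.58.1).

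Named genes were all block members, the called TRIM genes, those passing the adjusted p and the 3 highest per kb of transcript. Irf7, Isg15, Trim21, Trim66 and the interferon, Sertoli and myoid genes called only without a library were named after their values were seen. Members and lists were chosen with earlier results of these data known. Upstream sequences are from RefSeq (GRCm38.p6). Depth was 13203757 to 16231443 counts per library. Intervals (95%) and the floor of 3 counts cover counting error only, since reads without molecular identifiers are not independent molecules.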

Additional observations from a re-analysis of the deposited data

How the results depend on the processing

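The block call of 6 genes became 3 with limma-voom, 3 with the close pairs summed, 3 with glmTreat against a log2 fold change of 1 and 2 with at least 10 counts in every library, a filter that drops the genes near 0 in Amh-pa1-/- cells. It was 4 with DESeq2, which gave no adjusted p for Trim30a and Trim30d, and 4 to 6 with single libraries left out. The 5 calls outside the block became 2 with the close pairs summed, 1 with glmTreat (higher, none lower), 14 with the adjusted p alone, and 3 to 6 with single libraries left out. Of all genes, 1791 were called, against 883, 538 and 5266 under the same 3 settings and 1466 to 2076 with single libraries left out. Trim12a, Trim5 and Trim30b were called with the close pairs summed (adjusted p = 0.012, 0.018 and 0.034), whereas Trim30d was not (0.076). Trim30d also missed with limma-voom (0.0961). Changes that were small with all libraries turned sign in some settings. For Trim12c they were -0.084 with the close pairs summed and -0.12 to 0.32 with single libraries left out. For Trim34b they were -0.013 and -0.15 to 0.92 under the same settings. For Trim35 they were 0.0016 with no filter and -0.062 to 0.059 with single libraries left out, and for Trim28 -0.091 to 0.042. The causes were not tested. No other direction turned among the 25 TRIM genes followed through the alternatives. Outside the family, Irf1 (0.02) and Tlr2 (-1.54) had -0.21 and -1.92 with the close pairs summed and 1.18 and 1.21 without Pa1F/F replicate 2.

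The replicate numbers did not pair the samples, since the correlations of same-numbered deviations were 0.11, -0.16 and -0.18. With the replicate number as a block, 5 block genes, 4 other TRIM genes and 1558 genes in all were called, and Trim30a (adjusted p = 0.120) and Trim14 (0.0807) were lost. Trim24, Trim2, Trim59 and Trim47 then missed the adjusted p (0.0536, 0.0593, 0.0787 and 0.098).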
